A study of Mus musculus with 119 samples.

Results

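Otp, Sim1, Nkx2-1, Nkx2-2, Six6, Esr1, Avp, Oxt, Pmch and Hcrt, 10 of the 55291 genes with a symbol in the count tables, were followed across 119 brain libraries because each is known from the hypothalamus or the medial amygdala, which lie close to some of the sampled tissue. They were taken by name, whatever their level. The libraries were made from 1 to 2 mm punches of the prefrontal cortex (PFC), the dorsal medial striatum (DMS, labelled dorsolateral), the nucleus accumbens (NAc), the amygdala (Amy) and the ventral tegmental area (VTA). Punches came from mice labelled C57BL/6J and 11 weeks old (C57BL/6NCrl and 12 weeks in the study's methods). Male and female mice had received 21 daily intraperitoneal injections of 10 mg/kg delta-9-tetrahydrocannabinol (THC), the main psychoactive compound of cannabis, or its vehicle of ethanol, tween and saline, from postnatal day 28 to 48. All were behaviourally tested from day 63, before the tissue was taken. Each region, sex and treatment had 6 libraries, except 5 for the vehicle-treated male VTA. By the study's methods each library held 1 region of 1 mouse, so the replicates of a group were separate mice, and the labels do not tie libraries of different regions to the same mouse.

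Neurons of the hypothalamus and of the adjoining medial amygdala control feeding, stress, reproduction and social behaviour, largely through secreted peptides and through receptors for sex steroids. The homeodomain factor Otp and the bHLH-PAS factor Sim1 are needed to form the neurons of the paraventricular and supraoptic nuclei that make vasopressin (from Avp) and oxytocin (from Oxt), and both also mark neurons of the medial amygdala. Melanin-concentrating hormone (from Pmch) and the orexins (from Hcrt) are made by neurons of the lateral hypothalamus. In bulk tissue, fewer cells of a type and less RNA per cell cannot be told apart.

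The median of the total expected counts per library was 22092612 over all libraries, and totals ran from 20299010 to 25470245 for the PFC, from 17826631 to 24702752 for the DMS, from 12091765 to 40235601 for the NAc, from 8713204 to 76111373 for the Amy and from 3090998 to 77042133 for the VTA. Levels are given as CPM, counts scaled to a common library total with edgeR's TMM factors, and are compared between regions or groups within a gene, never between genes, since no gene length was used. Markers of the PFC, the striatum and the VTA fitted the labels. Slc17a7, a cortical glutamate transporter, was at 1763 CPM or more in every PFC library and at 1107 CPM or less elsewhere. Slc6a3, the dopamine transporter, was at 445 to 1697 CPM in the VTA and at 1.78 CPM or less in other regions. Adora2a, a striatal adenosine receptor, had a median of 572 CPM in the DMS, 255 CPM in the NAc and 45.3 CPM in the Amy. Rspo2, a marker of the basolateral amygdala, was at 7.97 to 37.2 CPM in the Amy, and Prkcd, of the central amygdala, at 13.6 to 54.2 CPM. Neither alone set the Amy apart from all other regions. Rspo2 averaged 42.7 CPM in the male and 41.5 in the female PFC, against 17.3 and 23.8 CPM in the Amy. Prkcd averaged 39.0 ± 23.3 CPM in the female NAc and 38.2 ± 12.7 in the female Amy. In males it was at 24.3 ± 16.2 and 35.8 ± 10.7 CPM. In 2 of the 119 libraries the sex genes went against the label. Library FTL_344, labelled female Amy THC, had Xist at 0.293 CPM and 4 Y-linked genes summing to 139 CPM, and library FTL_356, labelled male Amy THC, had Xist at 488 CPM and the same 4 genes at 0.371 CPM. The comparisons of the Amy that used them are given with and without them.

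Oxt and Avp are neighbours on chromosome 2 (GRCm38), transcribed towards each other with 3565 bases and 0 genes between their ends. Their RefSeq promoters, the 250 bases before each transcription start, are shown because Esr1 is also among the genes followed and because the levels of the peptides were compared across the same libraries. Capitals mark GGTCA or its reverse TGACC, the core letters of sites for nuclear receptors such as the estrogen receptor, and ACGTG or its reverse CACGT, the core of an E-box bound by bHLH factors, searched on both strands within these 250 bases.

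Oxt promoter, chr2:130575919-130576168, plus strand: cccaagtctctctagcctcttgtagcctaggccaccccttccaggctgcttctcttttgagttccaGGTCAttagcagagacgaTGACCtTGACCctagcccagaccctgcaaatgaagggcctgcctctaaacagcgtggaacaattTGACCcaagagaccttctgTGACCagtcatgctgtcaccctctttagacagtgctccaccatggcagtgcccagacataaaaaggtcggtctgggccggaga
Avp promoter, chr2:130582589-130582838, minus strand: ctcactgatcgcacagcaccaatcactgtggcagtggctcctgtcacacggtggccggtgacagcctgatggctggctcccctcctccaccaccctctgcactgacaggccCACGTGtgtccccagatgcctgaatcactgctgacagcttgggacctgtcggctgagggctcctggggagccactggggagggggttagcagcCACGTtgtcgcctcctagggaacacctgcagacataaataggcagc

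The Oxt promoter held GGTCA 5 times, against at least 1 match in 35.2% of all 32851 promoters and at least 5 in 0.0426% of them. The Avp promoter held no GGTCA and held ACGTG 3 times, 2 of them the overlapping strands of CACGTG, where 16.6% of all promoters had a match and 1.22% had at least 3. Of the other 8 genes, all of which had a RefSeq promoter, none held GGTCA and Nkx2-2 alone held ACGTG, 2 times. These are matches of letters and no evidence of binding.

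The developmental transcription factors fell into different regional patterns. Otp (13:94875602-94885130, plus strand, GRCm38) was a gene of the Amy and VTA punches. It had a lowest, median and highest level of 0.227, 3.41 and 14.4 CPM in the 24 Amy libraries and of 0.0181, 1.87 and 17.9 CPM in the 23 VTA libraries, while its mean was 0.106 ± 0.0736 (SD, n = 24) CPM in the PFC, 0.0781 ± 0.0885 (n = 24) in the DMS and 0.0875 ± 0.0852 (n = 24) in the NAc. The lowest Amy and VTA libraries lay within the range of the PFC, DMS and NAc, and Amy and VTA, at 4.99 ± 3.74 and 3.44 ± 4.20 CPM, did not differ past the threshold (log2 difference 0.60, SE 0.30, edgeR quasi-likelihood adjusted p = 0.06).

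Sim1 (10:50894754-50989152, plus strand) had 1 count in all 24 PFC libraries together, 3 in the DMS and 2 in the NAc, and was found in every Amy and VTA library. Its lowest, median and highest levels were 0.0454, 0.964 and 7.55 CPM in the Amy and 1.28, 3.83 and 13.7 CPM in the VTA. The groups overlapped, but Amy was lower than VTA by the test (log2 difference -1.69, SE 0.28, adjusted p = 2.27e-07), the reverse of the order of the Otp means.

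Nkx2-1 (12:56531958-56536908, minus strand), a homeodomain factor that specifies the ventral forebrain, its interneurons and the ventral hypothalamus, was detected in every DMS, NAc, Amy and VTA library. It averaged 0.0918 ± 0.0934 CPM for PFC, 6.52 ± 0.693 for DMS, 7.82 ± 2.23 for NAc and 5.35 ± 1.61 for Amy (n = 24 each), and 8.79 ± 12.5 for VTA (n = 23). Amy did not differ past the threshold from DMS (log2 difference -0.28, adjusted p = 0.349), NAc (-0.53, adjusted p = 0.0815) or VTA (-0.45, adjusted p = 0.145), although the VTA libraries ran from 0.134 to 45.0 CPM and the DMS libraries only from 5.27 to 7.89 CPM.

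Nkx2-2 (2:147177546-147194243, minus strand), a homeodomain factor of the ventral neural tube that is also made by the oligodendrocyte lineage, was detected in every library. Its mean was 3.54 ± 0.495 CPM for PFC, 5.37 ± 0.819 for DMS, 7.04 ± 1.09 for NAc, 7.07 ± 1.34 for Amy and 16.8 ± 1.58 for VTA. Every VTA library, at 13.9 to 20.7 CPM, lay above every Amy library, at 4.61 to 10.1 CPM, and Amy and NAc did not differ past the threshold (log2 difference 0.00, SE 0.06, adjusted p = 0.960).

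Six6 (12:72939892-72944899, plus strand), a factor of the eye field and of the suprachiasmatic and gonadotropin-releasing neurons, was close to absent. It had 56 counts in all 119 libraries, 36 of them in the NAc, was at 0 in 96 libraries and never exceeded 7 counts in a library. It passed no filter and was not tested. Nkx2-1, Nkx2-2, Six6 and Pmch overlap genes on the opposite strand. The library kit keeps strand, but the strand setting of the counting is not given in the sources used here.

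Esr1 (10:4611593-5005614, plus strand), which encodes estrogen receptor alpha, was also detected in every library and was highest in the Amy. Its lowest, median and highest levels were 3.73, 12.1 and 33.6 CPM in the Amy, 2.9, 4.20 and 5.38 CPM in the PFC, and 1.45, 2.26 and 4.24 CPM in the NAc. The VTA followed at 1.14, 2.29 and 3.74 CPM and the DMS was lowest at 0.148, 0.509 and 1.23 CPM. Amy exceeded the PFC by 1.67 (SE 0.12, adjusted p = 4.74e-25), the NAc by 2.44, the VTA by 2.50 and the DMS by 4.57 on the log2 scale, and only against the DMS did no libraries overlap. VTA was below the PFC (log2 difference -0.83, adjusted p = 6.95e-09), and VTA and NAc did not differ past the threshold (-0.06, adjusted p = 0.691).

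Avp (2:130580620-130582554, minus strand) was found mainly in the Amy. Its counts over all libraries of a region were 12 for PFC, 19 for DMS, 25 for NAc and 76 for VTA, where the highest library reached 1.45 CPM. In the Amy it ran from 0.519 through a median of 4.17 to 13.6 CPM, and the Amy exceeded the VTA by 5.78 (SE 0.31, adjusted p = 3.69e-33) on the log2 scale with an overlap of libraries.

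Oxt (2:130576173-130577054, plus strand) was much scarcer. Its 406 counts in the Amy gave a lowest, median and highest level of 0, 0.459 and 2.03 CPM, with 6 of 24 libraries at 0. It had 3 counts in the PFC, 8 in the DMS and 33 in the VTA. Of 81 counts in the NAc, 76 came from 1 vehicle-treated male library, FTL_323, at 4.15 CPM, above every Amy library. The Amy was higher than the VTA by 3.45 (SE 0.53, adjusted p = 9.84e-09).

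Pmch (10:88091072-88092375, plus strand) was found at a low level in nearly all punches, above 0 in 23 of 24 PFC, 21 of 24 DMS and 23 of 24 Amy libraries and in all NAc and VTA libraries, and was high in a few Amy libraries. Its lowest, median and highest levels were 0, 0.254 and 11.9 CPM in the Amy and 0.586, 1.01 and 4.83 CPM in the VTA, with means of 0.158 CPM for PFC, 0.0839 for DMS and 0.338 for NAc. The mean of the Amy, 1.49 ± 3.31 CPM, was above that of the VTA, 1.29 ± 1.03 CPM, while its median was below, and the regions did not differ past the threshold (log2 difference -0.31, adjusted p = 0.384). Hcrt (11:100761069-100762931, minus strand) had 140 counts in all, 71 of them in the VTA, and was at 0 in 57 libraries. Its highest library held 14 counts and it was not tested.

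**Figure D1:**
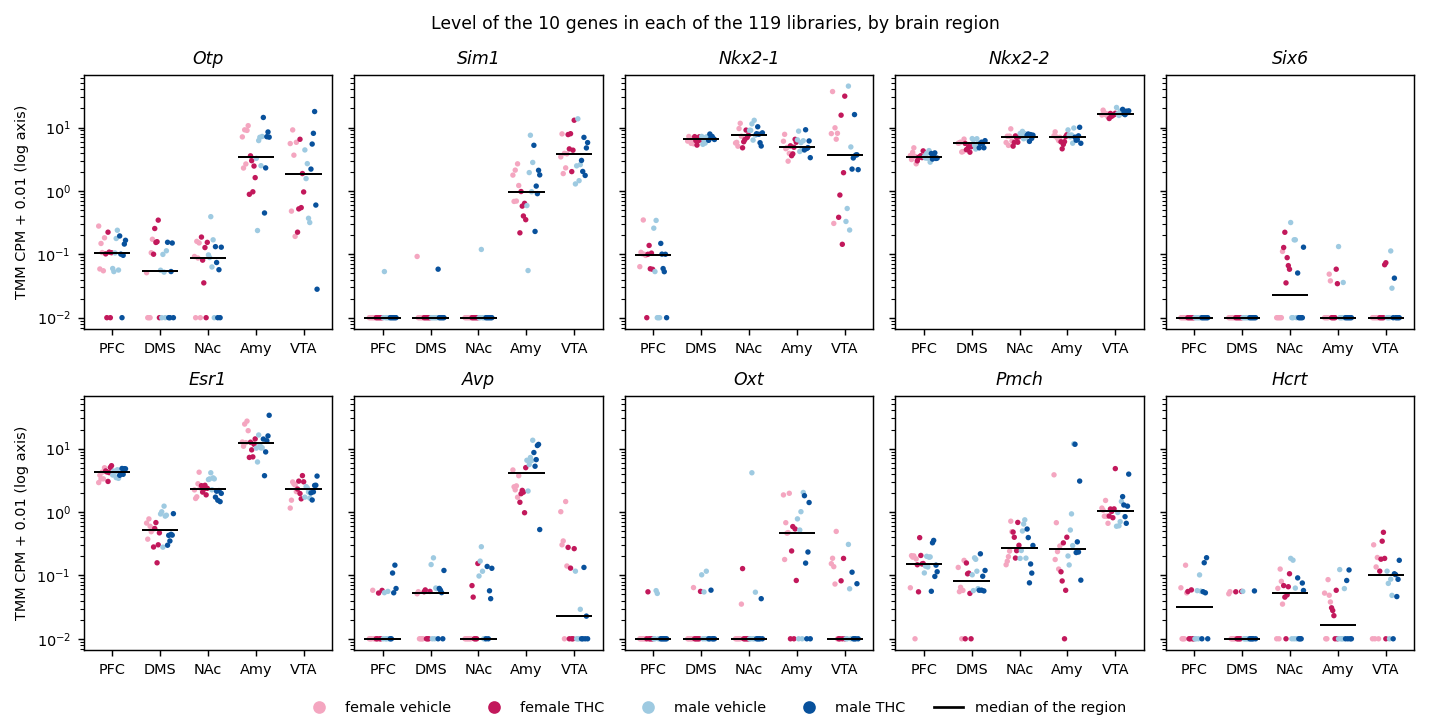
Level of each of the 10 genes in TMM-scaled CPM plus 0.01 (log axis) in all 119 libraries, by region, with 1 point per library coloured by sex and treatment and a line at the region's median. Avp and Oxt sit near the bottom in most libraries outside the Amy (1 NAc library has Oxt at 4.15 CPM), Esr1 is highest in the Amy with a median of 12.1 CPM, and Otp and Nkx2-1 are spread over the widest ranges in the VTA.

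A gene was called at an adjusted p under 0.05 with an absolute log2 difference of at least 0.4. Of the 8 genes that passed the filter on low counts (all but Six6 and Hcrt), 8 were called against the PFC, all higher in the Amy, where 37.7% of the 18932 genes tested were called. Against the DMS 6 were called, all higher (background 44.9%), and against the NAc 6, all higher (27.5%). The exceptions were Nkx2-1 and Nkx2-2. Against the VTA 5 were called (background 46.3%), with Esr1, Avp and Oxt higher in the Amy and Sim1 and Nkx2-2 lower. With the VTA as reference, 8 were called against the PFC (background 56.6%), of which Esr1 was lower in the VTA, 5 against the DMS (58.9%) and 4 against the NAc (54.7%). Sim1, Avp and Oxt had 12 counts or fewer each in all PFC libraries together. Otp, Sim1, Nkx2-1, Avp, Oxt and Pmch had a median of 3.5 counts or fewer per library in the PFC of each sex. Of these, all but Nkx2-1 had a median of 2 or fewer in the DMS and 6.5 or fewer in the NAc. In the VTA, Avp and Oxt had a median of 4.5 or fewer. Genes this scarce passed the filter mainly or only through regions where they were high. A higher level in those regions was thus largely built in, and their calls are given as a description. The share called in the background was large in each of these contrasts, the libraries of a mouse were treated as independent, and the PFC and DMS came from a separate table. Without FTL_344 and FTL_356 the contrasts of the Amy called 8, 6, 6 and 5 genes, as with them, and Esr1 exceeded the VTA by 2.37.

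Genes of the same systems were described beside them. Of 18 other hypothalamic transcription factors, 14 were tested and 11 were called between Amy and PFC, 8 of them higher in the Amy, while 13 were called between Amy and VTA, 4 higher and 9 lower. Lhx5, a LIM-homeodomain factor, averaged 0.997 ± 0.677 CPM in the Amy and 14.0 CPM in the VTA. Of 14 other hypothalamic peptides, 10 were tested and 8 were called against the PFC, all higher in the Amy, among them Ucn3, urocortin 3 of the medial amygdala, at 10.0 ± 5.91 against 0.00192 CPM, and Cartpt, an appetite-related peptide, at 22.5 ± 13.7 against 2.67 CPM. Of 5 sex steroid genes, 5 were called against the PFC and 4 were higher in the Amy, while the progesterone receptor Pgr was lower at 25.8 ± 3.94 against 38.0 CPM. Of 7 receptors for the peptides, 5 were tested and 2 were called, both higher in the Amy than in the PFC, and the orexin receptor Hcrtr2 was at 2.69 ± 0.511 against 2.25 CPM (adjusted p = 0.00643, below the size threshold).

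Within the Amy most of the genes tested varied far more between libraries than the typical gene, with Nkx2-2 the nearest to it. Spread was measured as the SD of log2 CPM around the mean of each sex and treatment group, and as edgeR's biological coefficient of variation (BCV), whose median over all 16956 genes tested was 0.124. Pmch and Oxt had a BCV of 1.38 and 1.38, at the 99.7th percentile of all genes, followed by Sim1 at 0.815 and Otp at 0.748, near the 99th. Avp had a BCV of 0.560 and Esr1 of 0.413, at the 98.0th and 96.1st percentiles. Nkx2-1 at 0.276 and Nkx2-2 at 0.167 stood at the 88.5th and 67.4th percentiles. Among genes of a like level the percentiles were 99.5 for Pmch, 99.0 for Oxt, 98.2 for Otp, 98.0 for Sim1, 99.2 for Esr1, 97.1 for Avp, 91.2 for Nkx2-1 and 72.0 for Nkx2-2.

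The single libraries show where this spread lay. Pmch was at 11.9 CPM in library FTL_350 (male vehicle), 11.7 in library FTL_351 (male THC), 3.85 in library FTL_333 (female vehicle) and 3.07 in library FTL_355 (male THC), and at 0.92 CPM or less in the other 20. Those same 4 libraries held 4 of the 5 highest Oxt levels, at 2.03, 1.80, 1.85 and 1.40 CPM. Otp exceeded 6 CPM in 11 libraries, from all of the groups except female THC, and fell below 1 CPM in libraries FTL_346, FTL_352, FTL_339 and FTL_342. Those 4 libraries were also the lowest for Sim1 apart from library FTL_344, with 0.0454, 0.219, 0.208 and 0.39 CPM. Esr1 was highest in library FTL_356 at 33.6 CPM and lowest in library FTL_352 at 3.73 CPM, and library FTL_352 also had the highest Nkx2-1, 9.22 CPM. Without libraries FTL_344 and FTL_356 the SD of log2 CPM fell from 1.03 to 0.61 for Avp and from 0.66 to 0.58 for Esr1, and went from 1.40 to 1.46 for Otp.

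**Figure D2:**
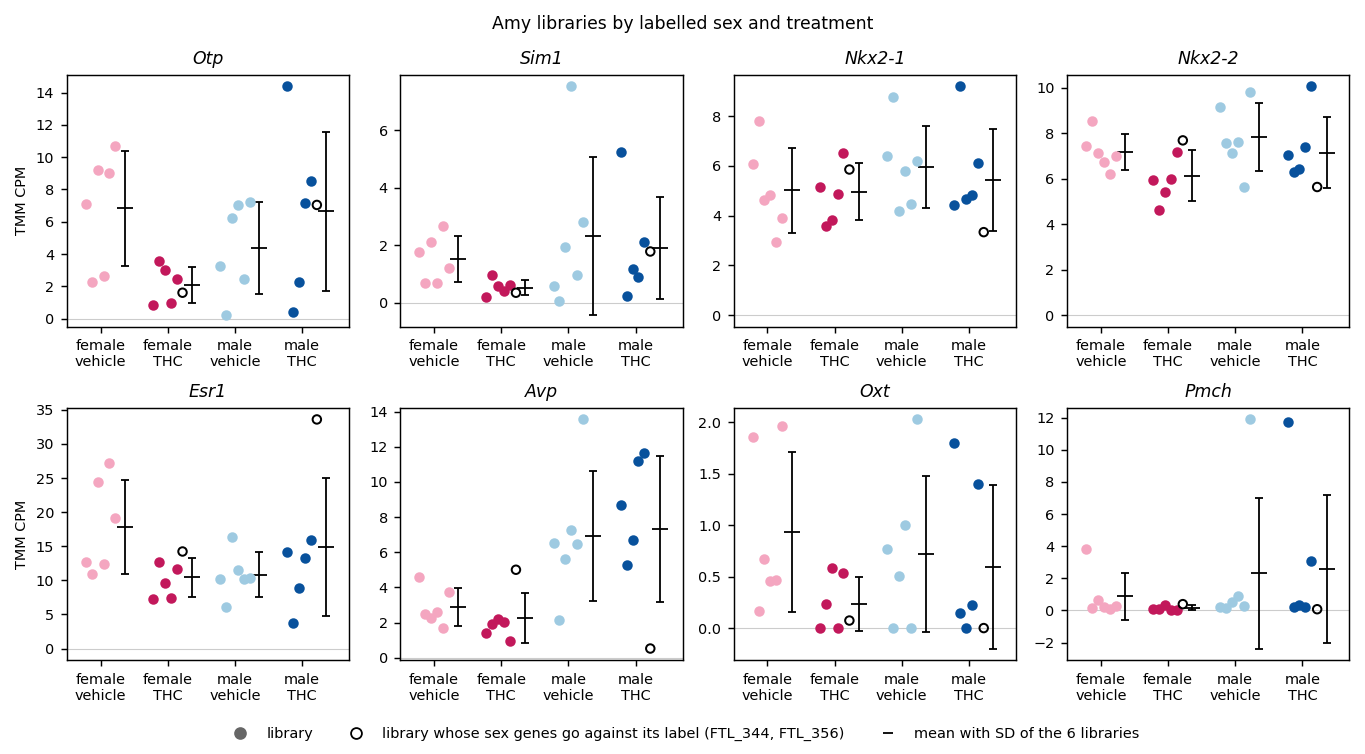
Level of the 8 genes that passed the filter in the Amy (TMM-scaled CPM, linear axes from 0) in the 4 sex and treatment groups of 6 libraries, with the mean and SD of each group, and with open black circles on libraries FTL_344 and FTL_356. The female THC libraries sit low for Otp (0.874 to 3.57 CPM) and overlap the vehicle libraries (2.29 to 10.7 CPM), and 2 male libraries carry most of the Pmch.

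Across the 24 Amy libraries these genes rose and fell in a pattern. Pearson's r and Spearman's rho were computed on deviations of log2 CPM from the group means, for all 28 pairs of the 8 genes, with a two-sided permutation test within groups of 100000 resamples and adjustment over the 28 pairs. Of these, 11 passed an adjusted p of 0.05, with unadjusted permutation p from 1e-05, the smallest these resamples can give, to 0.0114. Otp and Sim1 had the highest correlation (r = 0.891, rho = 0.859, permutation p adjusted 0.00028), and r was 0.783 without the 2 libraries farthest from the median. Otp also correlated with Esr1 (r = 0.767, rho = 0.681, adjusted permutation p = 0.0021, r = 0.626 without those 2) and with Oxt (r = 0.670, rho = 0.753, adjusted permutation p = 0.00622, then 0.735). Sim1 correlated with Esr1 (r = 0.618, rho = 0.697, adjusted permutation p = 0.00994, then 0.666) and Oxt (r = 0.590, rho = 0.6, adjusted permutation p = 0.0290, then 0.502).

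Nkx2-1 went the other way from these genes. Its r was -0.704 with Esr1 (rho = -0.561, adjusted permutation p = 0.00532, then -0.573), -0.621 with Otp (rho = -0.477, adjusted permutation p = 0.0136, then -0.382) and -0.534 with Sim1 (rho = -0.5, adjusted permutation p = 0.0290, then -0.544), but 0.573 with Nkx2-2 (rho = 0.650, adjusted permutation p = 0.0203, then 0.708). Of the peptides, Oxt and Pmch (r = 0.71, rho = 0.673, adjusted permutation p = 0.00392, then 0.640) and Avp and Pmch (r = 0.610, rho = 0.586, adjusted permutation p = 0.0290, then 0.577) passed, whereas the neighbouring genes Avp and Oxt passed by rho (0.487, adjusted permutation p = 0.0488) and not by r (0.504, adjusted permutation p = 0.0592, then 0.331).

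Markers of the surrounding cell types moved with these levels. Each gene was set against the mean standardised level of 4 marker lists, 32 relations in all, of which 10 passed. The list of medium spiny and central amygdala neurons, 10 genes with a summed level of 570 to 3127 CPM, correlated with Otp (r = -0.885, rho = -0.763, permutation p adjusted 0.000107, then -0.818), Esr1 (r = -0.901, rho = -0.847, adjusted permutation p = 0.000107, then -0.829) and Sim1 (r = -0.717, rho = -0.649, adjusted permutation p = 0.00056, then -0.545), and with Nkx2-1 in the opposite direction (r = 0.652, rho = 0.476, adjusted permutation p = 0.0125, then 0.435). Its 3 highest libraries, FTL_352 at 3127 CPM, FTL_346 at 2028 and FTL_339 at 1560, were the 3 lowest for Otp. The oligodendrocyte list correlated with Nkx2-1 (r = 0.771, rho = 0.785, adjusted permutation p = 0.000832, then 0.763) and Nkx2-2 (r = 0.766, rho = 0.709, adjusted permutation p = 0.000107, then 0.700). The thalamus list correlated with Nkx2-1 (r = 0.652, rho = 0.717, adjusted permutation p = 0.0127, then 0.750), Nkx2-2 (r = 0.548, rho = 0.640, adjusted permutation p = 0.0348, then 0.556) and Pmch (r = 0.613, rho = 0.450, adjusted permutation p = 0.0167, then 0.445). The list of cortical and basolateral projection neurons, at 498 to 1474 CPM, correlated with Nkx2-1 (r = -0.552, rho = -0.540, adjusted permutation p = 0.0348, then -0.493). By rho, the Nkx2-1 relation to the medium spiny list and the Pmch relation to the thalamus list did not pass (adjusted permutation p = 0.0730 and 0.0902). Without FTL_344 and FTL_356, 15 of the 28 pairs and 7 of the 32 relations to lists passed, and r was 0.891 for Otp and Sim1, 0.866 for Otp and Esr1 and -0.910 for Otp and the medium spiny list. The part of these cell types in the levels was not tested.

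**Figure D3:**
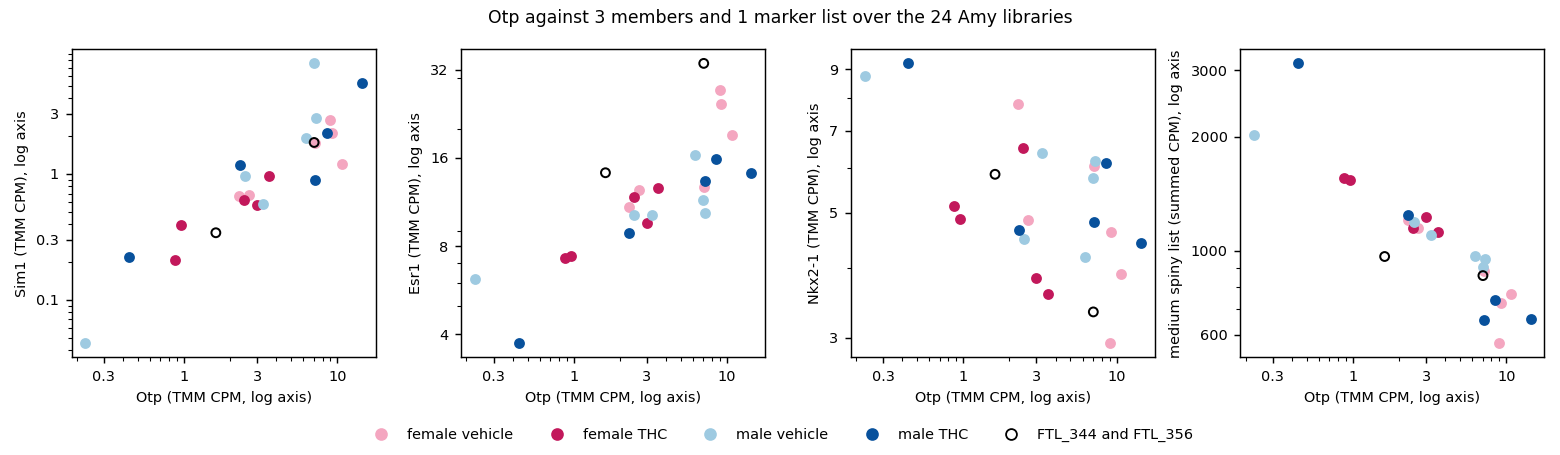
Otp (x axis, TMM-scaled CPM, log scale) against Sim1, Esr1, Nkx2-1 and the summed level of the medium spiny and central amygdala list (y axes, CPM, log scale) in the 24 Amy libraries, coloured by group. Sim1 and Esr1 rise with Otp (r = 0.891 and 0.767 around the group means), and Nkx2-1 and the list fall (r = -0.621 and -0.885).

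Genes with a highly similar course over the 24 Amy libraries, by r around the group means among all genes tested, are given as a description with no p. For Otp they were Gpx3 (0.96) and Hap1 (0.95), for Sim1 they were Otp (0.89), Ucn3 (0.87) and Ahi1 (0.86), and for Esr1 Plagl1 (0.95) came first. Ngfr (0.89) came first for Nkx2-1, Gpr62 (0.86), a receptor of oligodendrocytes, for Nkx2-2, Cckar (0.85), a cholecystokinin receptor, for Avp, Lhx5 (0.87) for Oxt and Atp13a4 (0.81) for Pmch. All points shared their library's depth and its cut of tissue.

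The VTA had its own pattern of spread. There the BCV of Nkx2-1 was 1.39, at the 99.6th percentile of the genes tested, and the SD of its log2 CPM was 2.40. Otp had an SD of 2.11 (99.4th percentile), Sim1 of 0.96 (97.8th) and Pmch of 0.72 (96.7th), whereas Nkx2-2 had a BCV of 0.0827, at the 30.7th percentile. Nkx2-1 was at 45.0, 37.0 and 31.3 CPM in libraries FTL_371, FTL_358 and FTL_368, then at 16 in library FTL_376, 15.7 in library FTL_365, and at 0.134 CPM in library FTL_366. Sim1 was highest in 4 of those libraries, at 13.7 CPM in FTL_371, 13.0 in FTL_368, 7.99 in FTL_365 and 7.93 in FTL_358. Otp was highest in library FTL_377 at 17.9 CPM, then in FTL_359 at 9.17 and in FTL_376, named above for Nkx2-1, at 8.10. Library FTL_371 was also the shallowest of the series, with 151 counts of Nkx2-1. The 8 dopaminergic markers summed to 1605 CPM in library FTL_371, 1820 in FTL_368 and 2838 in FTL_358, where other VTA libraries reached up to 4173 CPM and library FTL_363 was lowest at 1322, and their part in the Nkx2-1 level was not tested. In the other regions Nkx2-1 was steadier, with an SD of log2 CPM of 0.43 in the Amy, 0.39 in the NAc and 0.16 in the DMS.

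**Figure D4:**
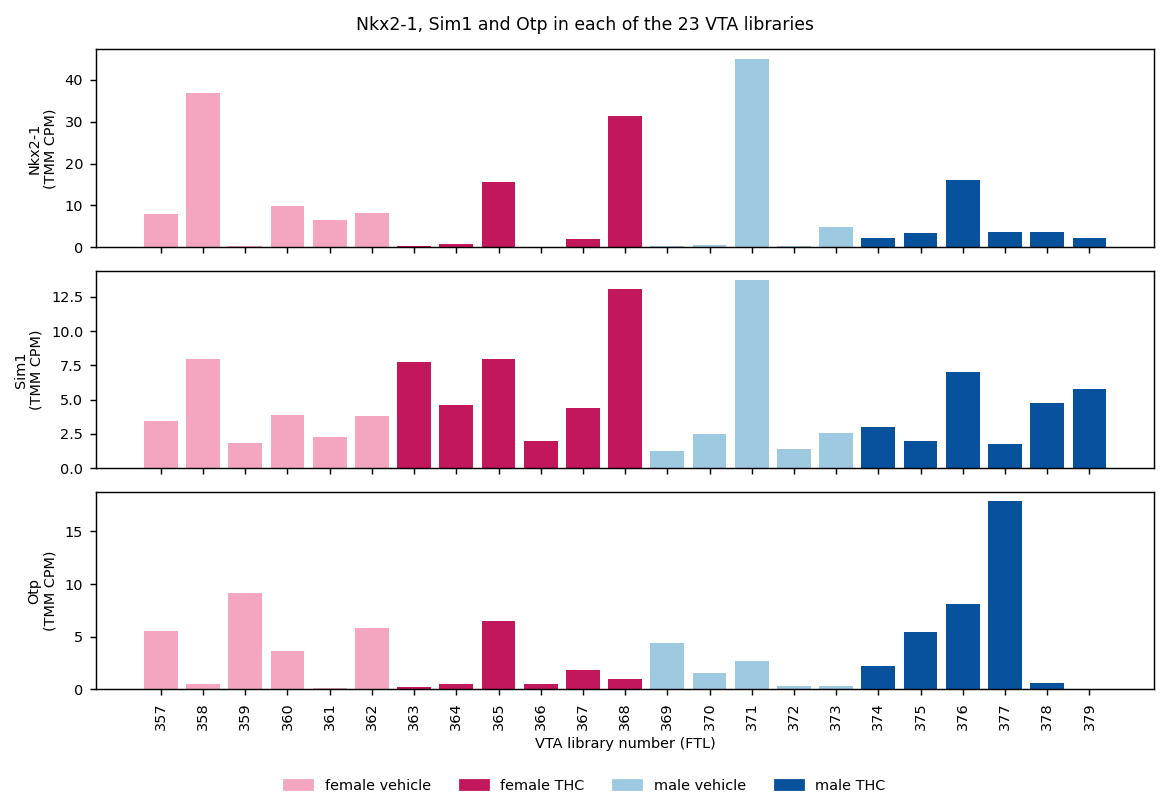
Level of Nkx2-1, Sim1 and Otp (TMM-scaled CPM, bars from 0) in each of the 23 VTA libraries, ordered by library number. Libraries FTL_371, FTL_358 and FTL_368 hold the highest Nkx2-1 (45.0, 37.0 and 31.3 CPM), and library FTL_377 holds the highest Otp (17.9 CPM).

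The first comparison of the design asked whether THC given in adolescence left a difference weeks after the last injection, and it was made in each region and sex. In the female Amy, Otp, Sim1 and Esr1 were lower on average in THC than in vehicle mice, and 0 of the 7 genes tested (Six6, Pmch and Hcrt were filtered) were called by edgeR, where 1.57% of 17003 genes were. Otp had a lowest, median and highest level of 2.29, 8.06 and 10.7 CPM in vehicle and of 0.874, 2.04 and 3.57 CPM in THC libraries. The groups overlapped, with 4 of 6 vehicle libraries above every THC library and libraries FTL_334 and FTL_336 within their range. The means were 6.82 ± 3.56 and 2.08 ± 1.11 CPM (n = 6 each), a log2 difference of -1.71 (SE 0.43, edgeR adjusted p = 0.0526).

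Sim1 followed Otp, with 0.673, 1.49 and 2.67 CPM in vehicle and 0.208, 0.479 and 0.968 CPM in THC libraries (log2 difference -1.55, SE 0.40, edgeR adjusted p = 0.0538). The same vehicle libraries, FTL_334 and FTL_336, overlapped with THC. Esr1 was at 10.9, 16 and 27.2 CPM in vehicle and at 7.26, 10.6 and 14.2 CPM in THC libraries (log2 difference -0.77, SE 0.25, edgeR adjusted p = 0.101), with 3 vehicle libraries above all THC libraries. By DESeq2, the tool used in the study, these 3 genes passed, with adjusted p of 0.0104 for Otp, 0.00480 for Sim1 and 0.0235 for Esr1, where 3.39% of the genes were called. By edgeR, Otp and Sim1 were called without vehicle library FTL_334 (adjusted p = 0.0347 and 0.0407) or FTL_336 (0.0407 and 0.0447), and Sim1 without vehicle library FTL_338 (0.0429). As FTL_334 and FTL_336 were the vehicle libraries that overlapped with THC, leaving either out favoured a call. The share of all genes called in these fits is not given here. Without library FTL_344 the edgeR log2 differences were -1.65 for Otp (adjusted p = 0.110), -1.45 for Sim1 (0.111) and -0.88 for Esr1 (0.111).

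The peptides and the NK factors of the female Amy differed less clearly. Oxt averaged 0.929 ± 0.776 CPM in vehicle and 0.236 ± 0.262 CPM in THC libraries, with 2 THC libraries at 0 (log2 difference -2.0, SE 0.74, edgeR adjusted p = 0.144, and -1.82, adjusted p = 0.251, without FTL_344). Avp was at 2.89 ± 1.07 against 2.26 ± 1.42 CPM (-0.37, adjusted p = 0.539 by edgeR, and -0.77, adjusted p = 0.175, without library FTL_344). Nkx2-2 was at 7.18 ± 0.783 against 6.14 ± 1.13 CPM (-0.25, adjusted p = 0.259) and Nkx2-1 at 5.03 ± 1.71 against 4.97 ± 1.13 CPM (-0.04, adjusted p = 0.928). Without FTL_344 these were -0.32 (adjusted p = 0.195) and -0.10 (adjusted p = 0.846). The median log2 difference of the 7 genes was -0.77, and that of all genes tested was -0.01.

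Marker genes of other cell types, among them those of the basolateral amygdala, differed between the same libraries. Of 10 markers of cortical and basolateral projection neurons, 4 were called, all higher in THC females: Slc17a7 at 869 ± 119 against 510 ± 84.2 CPM (log2 difference 0.76, edgeR adjusted p = 0.00859), Tbr1 (0.94), Neurod6 (0.83) and Rspo2 (1.14). The 10 markers summed to 717 to 1000 CPM in vehicle and 1059 to 1427 CPM in THC libraries, with no overlap. The medium spiny and central list summed to 570 to 1203 CPM in vehicle and 965 to 1560 CPM in THC libraries, with 0 of 10 called. None of the 8 thalamic, 10 oligodendrocyte, 3 tested choroid plexus or 6 astrocyte markers was called, and of 4 tested dopaminergic markers 1 was, Th, lower in THC females (-0.64, adjusted p = 0.0253). Without FTL_344 the same 4 projection neuron markers were called (Slc17a7 0.76, adjusted p = 0.0199) and Th was not (-0.63, adjusted p = 0.0519). The choroid plexus list summed to 17.3 to 1151 CPM in vehicle and 17.5 to 3584 CPM in THC libraries. The part of these cell types in the Otp, Sim1 and Esr1 levels was not tested.

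Among the genes of the same systems, 1 of 9 tested hypothalamic transcription factors was called in the female Amy, Lhx5, at 0.444 ± 0.120 CPM in THC and 1.21 ± 0.372 in vehicle libraries (log2 difference -1.47, edgeR adjusted p = 0.0123). Of 8 tested peptides 2 were called, both lower: Ucn3 at 5.66 ± 2.43 against 15.3 ± 5.33 CPM (-1.45, adjusted p = 0.0363) and Cartpt at 12.4 ± 3.42 against 31.0 ± 16.5 CPM (-1.35, adjusted p = 0.0459). Of 5 tested receptors 1 was, Hcrtr2, at 2.15 ± 0.264 against 3.04 ± 0.208 CPM (-0.51, adjusted p = 0.0328). None of the 5 sex steroid genes was called, Pgr being at 27.1 ± 2.23 against 23 ± 5.59 CPM. Without FTL_344, Lhx5 (-1.43, adjusted p = 0.0331) and Hcrtr2 (-0.56, adjusted p = 0.0418) were called, and Ucn3 (-1.5, adjusted p = 0.0614) and Cartpt (-1.42, adjusted p = 0.0707) were not. In the other 9 THC comparisons no gene of these 4 lists was called.

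In the male Amy 0 of 6 genes were called by edgeR or DESeq2, and of all genes 0% were, of 15321 tested. Depth differed between the Amy groups. Total expected counts per library ran from 8713204 to 14939490 in THC males and from 9663291 to 56648771 in vehicle males. In females they ran from 20341366 to 76111373 for THC and from 13018420 to 46044478 for vehicle. The part of depth in the THC and sex comparisons of the Amy was not tested. Otp averaged 6.64 ± 4.93 CPM in THC and 4.40 ± 2.84 CPM in vehicle males (n = 6 each, log2 difference 0.67, SE 0.74, and 0.66 without FTL_356), the other direction from the females. Esr1 was at 14.9 ± 10.1 against 10.8 ± 3.30 CPM (0.50, SE 0.41, and 0.08 without library FTL_356) and Avp at 7.34 ± 4.16 against 6.92 ± 3.72 CPM (0.08, and 0.34 without library FTL_356). The groups overlapped for every gene. The sex by treatment term, male minus female, was 2.37 for Otp (SE 0.90, edgeR unadjusted p = 0.0148, adjusted p = 0.259) and 1.27 for Esr1 (SE 0.49, adjusted p = 0.260), and without libraries FTL_344 and FTL_356 it was 2.29 and 0.95 (adjusted p = 0.252 and 0.271). By that term 0 of 8 genes were called, with 0.0059% of all genes called, so that a difference between the sexes in the response was not shown for any of them.

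The second factor of the design was sex, and Avp gave the largest of its member differences relative to error. In the Amy, Avp was at 1.70, 2.53 and 4.60 CPM (lowest, median, highest) in vehicle females, 0.965, 1.99 and 5.0 CPM in THC females, 2.13, 6.50 and 13.6 CPM in vehicle males and 0.519, 7.69 and 11.7 CPM in THC males. The highest THC female was library FTL_344 and the lowest THC male was library FTL_356, the libraries whose sex genes went against their labels. With all 24, males averaged 7.13 ± 3.77 and females 2.57 ± 1.24 CPM (n = 12 each, log2 difference 1.45, SE 0.33, edgeR unadjusted p = 0.000203, adjusted p = 0.266), not called where 0.0118% of 16956 genes were, and 0 of the 8 genes were. Without these 2 libraries, males were at 7.73 ± 3.29 CPM, from 2.13 to 13.6, and females at 2.35 ± 1.03 CPM, from 0.965 to 4.60 (n = 11 each). The log2 difference was then 1.70 and Avp was called (edgeR adjusted p = 0.00279), 1 of 14 genes or 0.0822% of those tested, and males and females still overlapped. By DESeq2 on all 24 libraries Avp was called too (log2 difference 1.48, adjusted p = 0.0240), with 0.0778% of genes called. Over the alternatives tried its adjusted p ran from 0.00279 to 0.469. Markers of other tissue differed between the same libraries without being called: with all 24, each of 6 choroid plexus markers was lower in males on average and each of 10 oligodendrocyte markers higher, and the choroid plexus list summed to 18.7 to 477 CPM in males and 17.3 to 3584 CPM in females. Without FTL_344 and FTL_356, 4 of 4 tested choroid plexus markers were lower and 10 of 10 oligodendrocyte markers higher, with 0 called. Their part in the Avp level was not tested.

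No other gene differed between the sexes past the threshold in the Amy. Pmch was at 2.46 ± 4.44 CPM in males and 0.520 ± 1.07 in females (log2 difference 2.33, edgeR adjusted p = 0.688), Sim1 at 2.11 ± 2.21 against 1.02 ± 0.776 CPM (1.12, adjusted p = 0.803) and Esr1 at 12.9 ± 7.51 against 14.1 ± 6.31 CPM (-0.12, adjusted p = 0.999). FTL_356 held the highest Esr1 among the libraries labelled male, and without it and FTL_344 Esr1 was at 11.0 ± 3.89 CPM in males and 14.1 ± 6.62 CPM in females (-0.34, adjusted p = 0.840), with log2 differences of 2.40 for Pmch (adjusted p = 0.601) and 1.01 for Sim1 (adjusted p = 0.763). In the other regions 0 members were called between males and females, of 2 tested in the PFC (background 0.237%), 3 for DMS (2.64%), 4 for NAc (0.25%) and 6 in the VTA (0.113%), by edgeR or by DESeq2. Nkx2-2 had an unadjusted p under 0.05 in 3 of them and was higher in males in each, by 0.18 in the DMS, 0.19 in the NAc and 0.12 in the VTA (adjusted p of 0.155 or more). In the NAc each of the 10 oligodendrocyte markers was also higher in males on average, with 0 called, and the list summed to 3321 to 4522 CPM in females and 3455 to 6321 CPM in males. In the DMS 6 of the 10 markers and in the VTA 8 were higher, and their part in the Nkx2-2 level was not tested.

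Outside the Amy, the difference with the smallest unadjusted p between THC and vehicle was that of Esr1 in the male NAc. The 6 vehicle libraries ran from 2.23 to 4.15 CPM and the 6 THC libraries from 1.45 to 2.17 CPM, with no overlap. Means were 3.29 ± 0.616 and 1.82 ± 0.306 CPM, a log2 difference of -0.85 (SE 0.16, edgeR unadjusted p = 6.18e-05, adjusted p = 0.210), so that 0 of 3 genes were called, as were 0% of all genes, with 2653 of 15932 at an unadjusted p under 0.05. DESeq2 gave Esr1 no adjusted p there. In the female NAc the Esr1 difference was -0.10 (adjusted p = 0.993) with 0 of 3 genes and 0% of all genes called, and the sex by treatment term was -0.75 (SE 0.26, unadjusted p = 0.00781, adjusted p = 0.385). In the DMS Esr1 was at 0.473 ± 0.232 against 0.858 ± 0.319 CPM in males (-0.87, SE 0.34, unadjusted p = 0.0194, adjusted p = 1.00) and at 0.397 ± 0.194 against 0.567 ± 0.141 CPM in females (-0.50, adjusted p = 0.682). In the PFC, at 4.36 ± 0.509 against 4.0 ± 0.512 CPM in males and 4.39 ± 0.814 against 3.76 ± 0.758 CPM in females, the differences were 0.12 and 0.21 (adjusted p = 1.00 and 0.892).

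Of the other genes outside the Amy, none was called by edgeR or DESeq2. That was 0 of 3 in the female DMS, where 0.0127% of genes were called, and 0 of 3 in the male DMS, 0 of 2 in the PFC of each sex and 0 of 6 in the VTA of each sex, with 0% of all genes called in each, where up to 1421 genes had an unadjusted p under 0.05. For the sex by treatment term it was 0 with 0% of genes called in the PFC, DMS, NAc and VTA, and 965 to 1845 genes at an unadjusted p under 0.05. Nkx2-1 and Nkx2-2 differed by between -0.33 and 0.11 on the log2 scale in the DMS and NAc, with adjusted p of 0.385 or more. In the VTA, Otp was at 1.77 ± 2.40 CPM in THC and 4.15 ± 3.45 CPM in vehicle females (log2 difference -1.09, SE 0.92, edgeR adjusted p = 0.720) and at 5.71 ± 6.70 against 1.87 ± 1.73 CPM in males (1.82, SE 1.28, adjusted p = 0.834). Pmch was at 1.62 ± 1.58 against 1.01 ± 0.301 CPM in females (0.68, adjusted p = 0.647) and at 1.61 ± 1.21 against 0.861 ± 0.368 CPM in males (0.81, adjusted p = 0.819), and the groups overlapped in both sexes. Of the THC females, FTL_368 was at 4.83 CPM and the other 5 at 0.803 to 1.11 CPM, and without it their mean was 0.977 ± 0.143 CPM (log2 difference -0.03, so the sign turned). Leaving out 1 male library moved that difference between 0.29 and 1.11. With a standard error of 1.15 in females and 1.40 in males, the log2 differences of Nkx2-1, -0.43 and -0.46, could not be told from 0. Nkx2-2 in the VTA, with the smallest errors, differed by -0.08 (SE 0.08) in females and -0.01 (SE 0.08) in males.

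**Figure D5:**
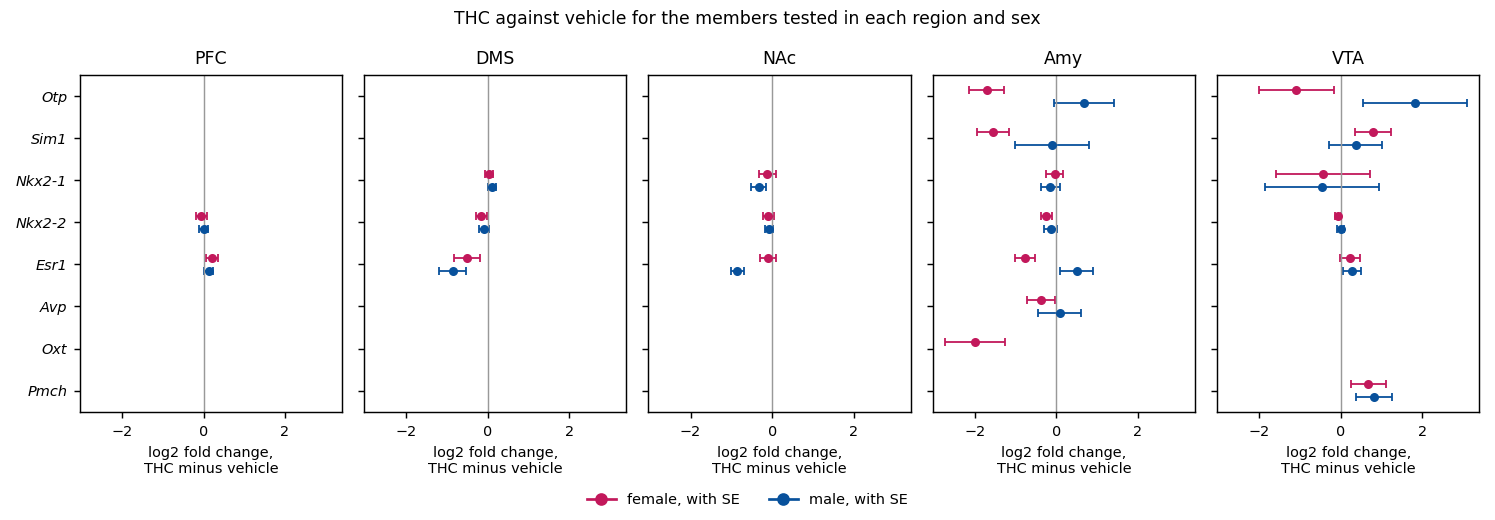
Log2 difference of THC minus vehicle with its standard error (x axis) for the genes tested in each region (panels), in females and males. In the female Amy, Oxt lies furthest below 0, with a larger standard error than Otp and Sim1, which come next (-1.71 and -1.55). Esr1 in the male NAc has a difference of -0.85 with a standard error of 0.16, and no point passed the threshold by edgeR.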

How the data were processed

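RNA of Amy, PFC, DMS, NAc and VTA punches with a RIN above 7.5 was made into polyA-enriched, directional libraries and sequenced as read pairs. Per the study's methods and the submitters' processing notes, the authors trimmed reads with cutadapt 2.9, aligned them to mm10 with STAR 2.7.3a and deposited RSEM 1.3.1 expected counts per gene symbol in 2 tables, 1 for PFC and DMS (48 libraries) and 1 for NAc, Amy and VTA (71 libraries). Counting by RSEM splits reads shared between genes, and 4.75% and 5.00% of the values in the tables were not exactly whole numbers (tolerance 0). Of the values of the 10 genes, 10 were not, all of Avp or Oxt. The tables had 0 columns that were not used, and 0 pairs of libraries were identical.

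Expected counts were rounded. Levels are TMM-scaled CPM over all 119 libraries. THC was compared with vehicle in each region and sex, sex and its interaction with treatment in each region, and regions in 1 fit of 20 group means, each by edgeR 4.0.16 (R 4.3.3) quasi-likelihood tests on rounded counts (filterByExpr, TMM), with Benjamini-Hochberg adjustment over all genes tested. Genes were called at an adjusted p under 0.05 and an absolute log2 difference of at least 0.4, thresholds of the study, which had used DESeq2. Regions were taken from the same mice, but no label gives the mouse, so no pairing was used in the contrasts between regions. Log2 CPM used a prior count of 2. Genes of like level lay within 0.5 log2 units.

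The 10 genes, the lists of other hypothalamic transcription factors, hypothalamic peptides, sex steroid genes and peptide receptors, and the marker lists were chosen with earlier results of these data known. All 10 genes are named. Of each list the genes called in a THC comparison are named, else up to 3 with the highest level, and for each gene some of those with the highest correlation. Some genes that this rule would name are not reported here. Alternatives were DESeq2 1.42.0, edgeR with its size factors, edgeR unfiltered, a joint fit of the 4 groups of a region, vehicle libraries only, leaving out libraries, another prior count and CPM without TMM. The contrasts between regions without libraries FTL_344 and FTL_356, and the female VTA without FTL_368, were added after seeing the data. Tested on simulated counts for the female Amy comparison, edgeR recovered 194 of 200 changed genes (97.0%) among 16878 genes with 8 other calls. The size of the differences put in and the level of the genes that received them are not given here. Recovery of the 10 genes, or of genes with their spread between libraries, was not tested separately, so the 97.0% is not a rate for them. Promoters came from RefSeq (GRCm38.p6) and gene positions from GENCODE M21 (GRCm38, the mm10 sequence). Depth sets the precision of scarce genes: 1 count is worth more CPM in a shallow library.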

Additional observations from a re-analysis of the deposited data

Results flagged for a closer look

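In 82 groups of 5 or 6 libraries, 1 for each gene tested, Dixon's test at the 95% level was applied to the highest and the lowest library. In 11 groups a library stood apart, each through a high value. The chance rate of about 1 in 20 holds for independent, normally distributed values. These were unlogged CPM, and the genes shared libraries, so an excess over chance cannot be read from this count. No cause was tested for any of them.

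In the Amy, Avp in library FTL_344, labelled female THC, was at 5.0 CPM where the other 5 libraries ran from 0.965 to 2.19, and this is 1 of the 2 libraries whose sex genes went against the label. Sim1 in library FTL_348, male vehicle, was at 7.55 CPM where the others ran from 0.0454 to 2.80.

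In the VTA, 8 groups had such a library, each with 1 high value. Among female vehicle libraries, FTL_358 had Nkx2-1 at 37.0 CPM (others 0.297 to 9.90) and Sim1 at 7.93 CPM (others 1.87 to 3.91). Among male vehicle libraries, FTL_371 had Nkx2-1 at 45.0 CPM (others 0.232 to 4.93) and Sim1 at 13.7 CPM (others 1.28 to 2.59), in a library of 3090998 counts. Among male THC libraries, Nkx2-1 was at 16 CPM in FTL_376 (others 2.16 to 3.71) and Pmch at 3.95 CPM in FTL_379 (others 0.654 to 1.74). Among female THC libraries, Otp was at 6.52 CPM in FTL_365 (others 0.213 to 1.87) and Pmch at 4.83 CPM in FTL_368 (others 0.803 to 1.11).

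Outside these regions, Esr1 in library FTL_308, male DMS THC, was at 0.933 CPM where the others ran from 0.289 to 0.435.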

How the results depend on the processing

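No paired analysis was possible because the library numbers are unique and no label gives the mouse. With DESeq2 in place of edgeR, 3 genes (Otp, Sim1 and Esr1) were called in the female Amy and 1 (Avp) between male and female Amy. Leaving out 1 library at a time in the female Amy gave 0 to 2 called genes, with 2 (Otp and Sim1) without vehicle library FTL_334 or FTL_336 and 1 (Sim1) without FTL_338. FTL_334 and FTL_336 were the vehicle libraries that overlapped with THC for Otp and Sim1. The share of all genes called in these fits is not given here. Avp alone was called between the sexes without libraries FTL_344 and FTL_356 (1 gene). The SD of log2 CPM of Avp was 0.61 without them and that of Oxt was 2.50 at a prior count of 0.5. Without the group term 18 of 32 relations to marker lists passed.

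Signs changed for several differences, and not only for small ones. Leaving out 1 library moved Nkx2-1 from -0.17 to 0.12 in the female Amy, Sim1 from -0.73 to 0.79 and Avp from -0.13 to 0.38 in the male Amy, and Nkx2-1 from -1.29 to 1.70 and Nkx2-2 from -0.0346 to 0.0591 in the male VTA. The Nkx2-1 interaction was 0.0639 without libraries FTL_344 and FTL_356 in the Amy and -0.53 by DESeq2 in the VTA, and the male VTA difference of Sim1 was -0.035 by DESeq2. In the female VTA Pmch was -0.0342 without FTL_368. Oxt between VTA and PFC missed the threshold with vehicle libraries only (2.58, adjusted p = 0.187). Of 880 values under alternatives, 838 were classed as the same. Of these, 681 were log2 differences that kept direction and side of the threshold. The other 157 were counts of called genes or of passed correlations that stayed equal or near, or SDs that stayed within an approximate standard error. Genes called in all by edgeR and by DESeq2 were 2 and 24 in the female DMS, 0 and 5 in the male NAc, 0 and 6 in the female VTA, 1 and 27 for the interaction in the Amy, 2 and 13 for sex in the Amy and 19 and 34 for sex in the VTA. In the female Amy DESeq2 called 544 genes (3.39%) and edgeR 1.57% of those tested. The causes were not tested.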

Other observations

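Oxt was nearly absent from the NAc except in library FTL_323 (male vehicle), which held 76 of the region's 81 counts at 4.15 CPM, more than any Amy library. Six6 was found mainly in the NAc, with 36 of its 56 counts and 12 of 24 libraries above 0, and in 0 of 48 PFC and DMS libraries.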
